A study of Mus musculus with 9 samples.

Results

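The genes described here are 10 transcripts of the integrated stress response, the program that runs through the transcription factor ATF4. They were Atf4, Atf5, Ddit3, Ppp1r15a, Trib3, Asns, Psat1, Phgdh, Chac1 and Sesn2, taken by symbol from a table with 45535 rows that carry a gene symbol. Each of the 10 symbols matched 1 row, and all 10 passed the filter on low values, a mean normalized read count of at least 10 over all samples. RNA-seq was done on dendritic cells isolated by beads for CD103, an integrin carried by type 1 conventional dendritic cells (cDC1) of the lung. All samples came from C57/BL6j mice treated with bleomycin, a drug that injures the lung and leads to fibrosis, for 7 days. The group before culture (n = 5) was lysed directly, and the group after culture (n = 4) was kept ex vivo for 18 h in RPMI with fetal bovine serum and antibiotics. No sample without bleomycin is used here, so bleomycin, strain and bead selection are shared by both groups. Age and sex are not given in the sources used here, nor is the number of mice behind a sample.

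In the integrated stress response, 4 kinases sense different stresses and phosphorylate the alpha subunit of the initiation factor eIF2, which lowers protein synthesis in general while translation of ATF4 rises. ATF4 then pairs with other basic leucine zipper (bZIP) proteins and switches on genes for amino acid synthesis, amino acid import and feedback control. Much of this control acts on translation, so the transcript of Atf4 and the activity of the ATF4 protein need not move together, and only transcripts were measured here.

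The DNA element best known for ATF4 is the C/EBP-ATF response element, or CARE, at which ATF4 binds with a C/EBP partner. RefSeq promoter windows (GRCm38.p6, 250 bases before to 50 bases after each annotated start) were searched for its core TGATGNAA on both strands, N being any base. Of the 10 genes, 3 held a match, and they are shown because their results after culture differed: Asns rose, Chac1 fell and Trib3 did not pass the test. Some genes have several windows. Counted by window, 3 of the 12 windows of the 10 genes and 3.97% of all 32851 windows held a match, and counted by gene 1219 of 27025 genes did. The cyclic AMP response element TGACGTCA, searched after the data had been seen, was present in 1 of the 12 windows, that of Ppp1r15a, and in 1.79% of all windows. Capitals mark the match, and each sequence reads in the direction of its gene.
Asns, chr6:7693214-7693243, minus strand: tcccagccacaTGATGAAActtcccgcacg
Trib3, chr2:152344028-152344057, minus strand: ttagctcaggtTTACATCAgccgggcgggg
Chac1, chr2:119351009-119351096, plus strand: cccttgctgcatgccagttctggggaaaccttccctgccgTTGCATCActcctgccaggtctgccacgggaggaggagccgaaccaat
Ppp1r15a, chr7:45526269-45526320, minus strand: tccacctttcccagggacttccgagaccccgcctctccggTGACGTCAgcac
The match lay at positions -23 to -16 from the annotated RefSeq start in Asns, 15 to 22 in Trib3 and -193 to -186 in Chac1, where it is on the opposite strand, as in Trib3. In Ppp1r15a the match lay at -12 to -5. The gene model of Asns in GENCODE M21 starts further upstream, at 7693254, so by that annotation the Asns match lies inside the gene. Among tested genes with a CARE match in a window, 106 of 339 (31.3%) were higher and 131 (38.6%) lower after culture, with a median log2 change of -0.07. Over all 11924 tested genes with any window, 34.1% were higher and 36.8% lower, with a median of -0.02. A match describes letters in a window and not a site of binding. A window without a match does not show that a gene lacks a CARE, since sequence outside the windows was not searched.

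Of the 10 genes, 7 fell after culture, 2 rose and 1 did not pass the test. The falls were in Ppp1r15a, Chac1, Sesn2, Atf4, Phgdh, Ddit3 and Psat1, from 4.64-fold to 1.38-fold, and the rises were in Asns (3.50-fold) and Atf5 (1.43-fold). Trib3 was the gene that did not pass. A fold is the ratio of group means of normalized read counts, and a log2 change is the limma estimate on log2(normalized count + 1), after minus before culture, with its standard error (SE). Across the whole table a large share of genes passed the same test (limma, Benjamini-Hochberg adjusted p under 0.05 over 18202 genes): 68.8% in either direction, 34.2% higher and 34.6% lower after culture. The groups did not overlap for 8 of the 10 genes, beside 57.3% of all tested genes. The median log2 change was -0.74 over the 10 genes and 0.01 over all tested genes. These counts of 2 higher and 7 lower were the same under each of the 23 alternatives, among them other scalings, filters, pseudocounts and tests and leaving out each sample.

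**Figure D1:**
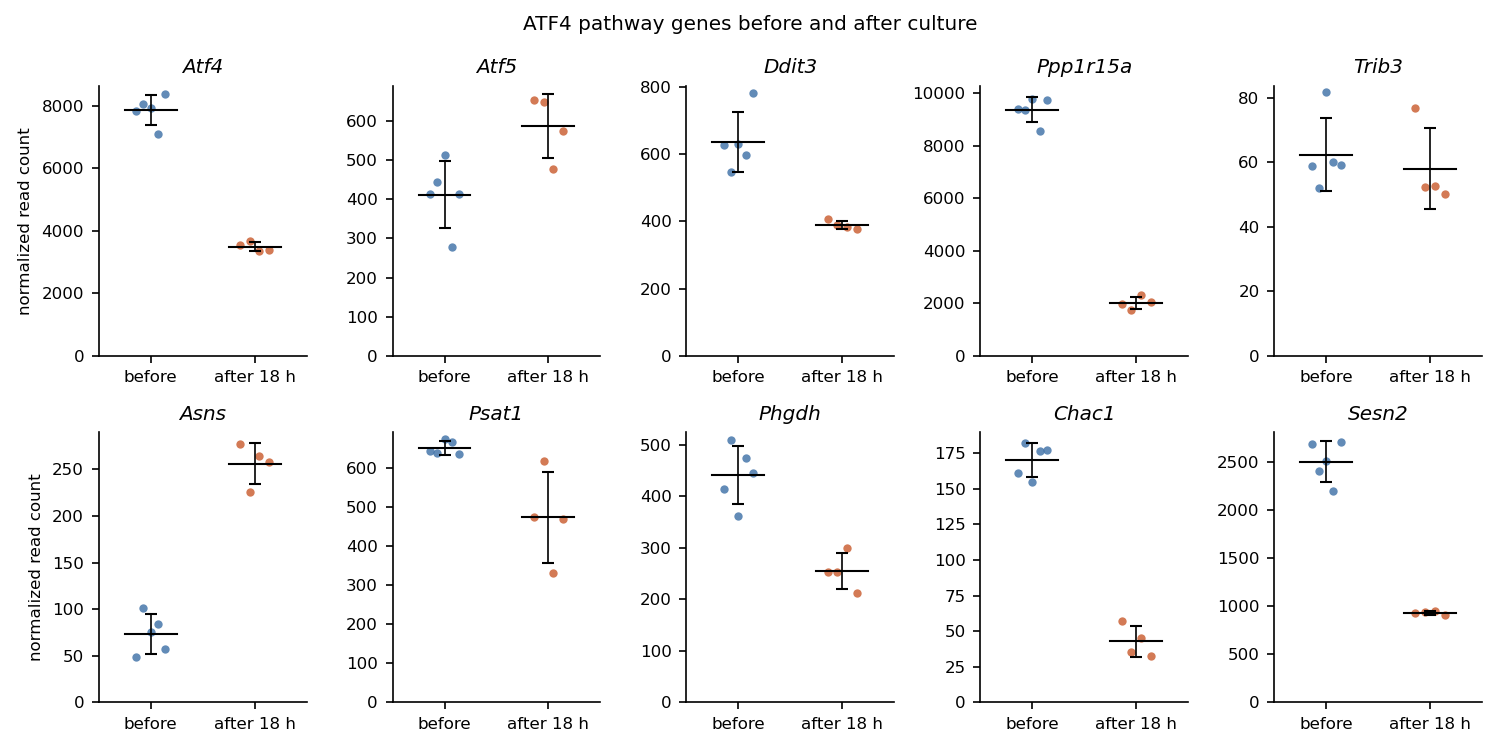
Normalized read count of each of the 10 genes (vertical axes, linear, from 0) in each sample before (blue, n = 5) and after 18 h of culture (orange, n = 4). Horizontal bars are means and error bars are SD. The groups are apart in 8 panels and overlap for Atf5 and Trib3.

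Depth in rows with a symbol was 14.7 to 28.8 M reads before and 26.0 to 35.3 M reads after culture, and a single read equalled 0.758 to 1.79 normalized counts depending on the sample. The cDC1 markers of a fixed list were read in every sample before culture, with a summed normalized count of 141263 to 170319. After culture this sum was 30056 to 33298, with 8 of the 10 genes lower and 2 higher, Flt3 (1.60-fold) and Batf3 (1.46-fold). Wdfy4 alone held 75717 of the mean cDC1 sum of 156177 before culture and 4761 of 32202 after it. The 10 genes of a mature dendritic cell list were all higher after culture (summed count 38402 to 41911 before, 177837 to 199251 after). Markers of other cells fell with the same contrast. Summed counts went from 14393 to 25089 before to 943.5 to 1916 after culture for neutrophil genes (8 of 8 tested lower), and from 26120 to 37902 to 3387 to 4500 for endothelial genes (10 of 10 lower). They went from 17497 to 31462 to 2511 to 4893 for fibroblast genes (10 of 10 lower) and from 26626 to 45696 to 4897 to 9354 for lung epithelial genes (8 of 10 lower). Of the mean lung epithelial sum before culture (32240), Cdh1 held 6244 and Napsa 7835. Before culture both were lowest in replicate 4 (5303 and 7064), where Sftpc was highest (16826). The neutrophil genes Ly6g and Camp were too low to be tested. Ly6g had normalized counts of 1.90 to 11.2 before culture and 0 in every sample after it, and Camp had 0 to 2.51 before and 3.04 to 6.82 after. Sums overlapped between the groups for macrophage and monocyte genes (31994 to 54194 before, 20989.9 to 44777 after), for T and NK cell genes and for B cell genes. In these lists 1 of 10, 1 of 10 and 2 of 8 genes were higher and 4, 6 and 3 lower. Beside these counts and those of the other marker lists, 34.2% of all tested genes were higher and 34.6% lower. Within the T and NK cell list Gzma (14.6-fold), Ncr1 (5.46-fold), Klrb1c (4.15-fold) and Nkg7 (3.55-fold) fell without overlap. Cd3e, Cd3d and Cd8b1 in that list did not pass the test. Of the macrophage and monocyte genes, Ccr2 fell 5.49-fold and Mertk rose 1.47-fold, both without overlap. C1qa, C1qb and C1qc fell with overlap, and Adgre1, Csf1r, Ly6c2, Marco and Fcgr1 did not pass the test. The median log2 change of that list was 0.008. The part of these cells in the changes of the 10 genes was not tested. In such bulk samples, fewer cells of a type and less RNA per cell cannot be told apart.

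The transcription factors of this pathway are described first. Atf4 (chr15:80255184-80257541, plus strand), the bZIP factor at its centre, had normalized counts of 7838, 8065, 7923, 7085 and 8374 in replicates 1 to 5 before culture. After culture the counts were 3538, 3662, 3361 and 3389 in replicates 1 to 4. All 4 cultured samples lay below all 5 uncultured ones, and the spread within each group was small (coefficient of variation 6.07% and 4.01%). Atf4 was 2.25-fold lower after culture, with a log2 change of -1.17 (SE 0.07, limma adjusted p = 5.48e-09). A correction for GC content and transcript length, added after seeing the data, gave -0.86, still past the threshold. None of the 50-base windows of Atf4 occur in transcripts of other genes, and no annotated gene overlaps it.

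Ddit3 (chr10:127290774-127296288, plus strand) encodes CHOP, a bZIP factor made under lasting stress and linked to cell death. Its counts were 627, 546, 629, 597 and 782 before and 407, 390, 382 and 379 after culture. The cultured samples lay close together, from 379 to 407, below the lowest uncultured sample at 546. The mean fell from 636 ± 88.3 to 389 ± 12.7 (SD), a log2 change of -0.70 (SE 0.10, limma adjusted p = 4.22e-05). The gene overlaps Mars, which is Mars1 in the deposited table, on the opposite strand over 3.97% of its exonic bases and a second Ddit3 gene model on the same strand over 6.13%, and use of strand in counting is not given in the sources used here. Mars1 stood at 955 before and 783 after culture.

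Atf5 (chr7:44812256-44816658, minus strand), a relative of Atf4 that is also controlled through translation, went the other way. Counts were 412, 444, 512, 277 and 413 before and 652, 647, 478 and 573 after culture. Replicate 3 before culture (512) lay above replicate 3 after culture (478), so the groups overlapped. These samples share a number in their titles but not in their library names, B3 and A4. Replicate 4 before culture, at 277, was the lowest of all 9 samples. The mean rose from 412 ± 85.4 to 588 ± 81.7 (SD), a log2 change of 0.53 (SE 0.16, limma adjusted p = 0.00878). Without replicate 4 before culture the change was 0.39, and a correction for GC content and transcript length, added after seeing the data, gave 1.13. Both values passed the test. Atf5 shares 4.11% of its exonic bases with Nup62 and Il4i1 on the opposite strand, and both were also higher after culture, at 1882 against 2575 for Nup62 and 14.7 against 62.4 for Il4i1. The part of their reads in the Atf5 value was not tested.

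The next genes feed back on the pathway. Ppp1r15a (chr7:45522916-45526268, minus strand) encodes GADD34, which brings protein phosphatase 1 to eIF2 and so restores translation. It had counts of 9401, 9369, 9799.8, 8580.0 and 9755 before and 1989, 1759.7, 2300.2 and 2042 after culture. The highest cultured sample was far below the lowest uncultured one, and the fall was the steepest of the 10 genes. It was 4.64-fold, with a log2 change of -2.22 (SE 0.08, limma adjusted p = 6.30e-11), and 6.83% of all tested genes had a change as low or lower.

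Trib3 (chr2:152337422-152344032, minus strand) encodes a pseudokinase that binds ATF4 and CHOP and restrains them. Its counts were 59.0, 52.0, 81.9, 60.3 and 59.1 before and 76.8, 52.3, 52.8 and 50.2 after culture. One sample in each group stood above the rest, replicate 3 before and replicate 1 after culture, and the groups overlapped. The log2 change was -0.11 with a 95% interval of -0.54 to 0.32 (limma adjusted p = 0.640), an interval that spans 0. Its sign turned under quantile normalization (0.07) and once GC content and length were corrected for (0.31), and neither value passed the test.

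The enzymes of amino acid synthesis moved in both directions. Asns (chr6:7675169-7693254, minus strand) encodes asparagine synthetase, which makes asparagine from aspartate and glutamine. Counts were 48.6, 101, 75.2, 83.7 and 57.3 before and 277, 226, 264 and 258 after culture. Every cultured sample exceeded the highest uncultured sample, and the uncultured samples varied most in relative terms of the 10 genes (coefficient of variation 28.8%). The mean rose from 73.2 ± 21.1 to 256 ± 21.8 (SD), a log2 change of 1.84 (SE 0.20, limma adjusted p = 2.19e-06), at the 95.2th percentile of all tested genes.

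Phgdh (chr3:98313170-98339990, minus strand) encodes the enzyme of the first step of serine synthesis. It had counts of 414, 509, 362, 474 and 446 before and 253, 252, 299 and 213 after culture. The groups did not overlap, with 299 as the highest cultured and 362 as the lowest uncultured value. The fall was 1.73-fold (log2 change -0.79, SE 0.12, limma adjusted p = 7.71e-05), and the GC and length correction gave -0.42, still past the threshold. Its value is uncertain, because 63.1% of its 50-base windows also occur in transcripts of other genes, most often Gm7901, which was read at a mean of 0.358 before culture.

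Psat1 (chr19:15904678-15947337, minus strand) encodes the enzyme of the next step of serine synthesis. Counts were 644, 639.8, 674, 668 and 635 before and 476, 618, 331 and 469.8 after culture. The uncultured samples were nearly equal (coefficient of variation 2.70%), whereas the cultured samples were spread (24.7%), and replicate 2 after culture (618) came close to the lowest uncultured sample (635). The mean fell from 652 ± 17.6 to 474 ± 117 (SD), a log2 change of -0.49 (SE 0.14, limma adjusted p = 0.00612). Without replicate 3 after culture the change was -0.33, and without replicate 2 it was -0.63, both past the threshold.

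The remaining genes act on glutathione and on growth signalling. Chac1 (chr2:119351229-119354381, plus strand) encodes an enzyme that degrades glutathione. Its counts were 161, 182, 155, 177 and 177 before and 57.4, 35.6, 45.5 and 32.7 after culture. All cultured samples were far under the lowest uncultured one. The fall was 3.98-fold (95% interval of the log2 change -2.38 to -1.62, limma adjusted p = 3.25e-07).

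Sesn2 (chr4:132492032-132510501, minus strand) encodes sestrin 2, which senses leucine and restrains the growth kinase complex mTORC1. It had counts of 2693, 2409, 2510, 2195 and 2712 before and 933, 939, 954 and 906 after culture. The cultured samples differed by little (coefficient of variation 2.16%) and lay under every uncultured sample. The fall was 2.68-fold (log2 change -1.42, SE 0.08, limma adjusted p = 2.23e-09), and the GC and length correction gave -0.93, still past the threshold.

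**Figure D2:**
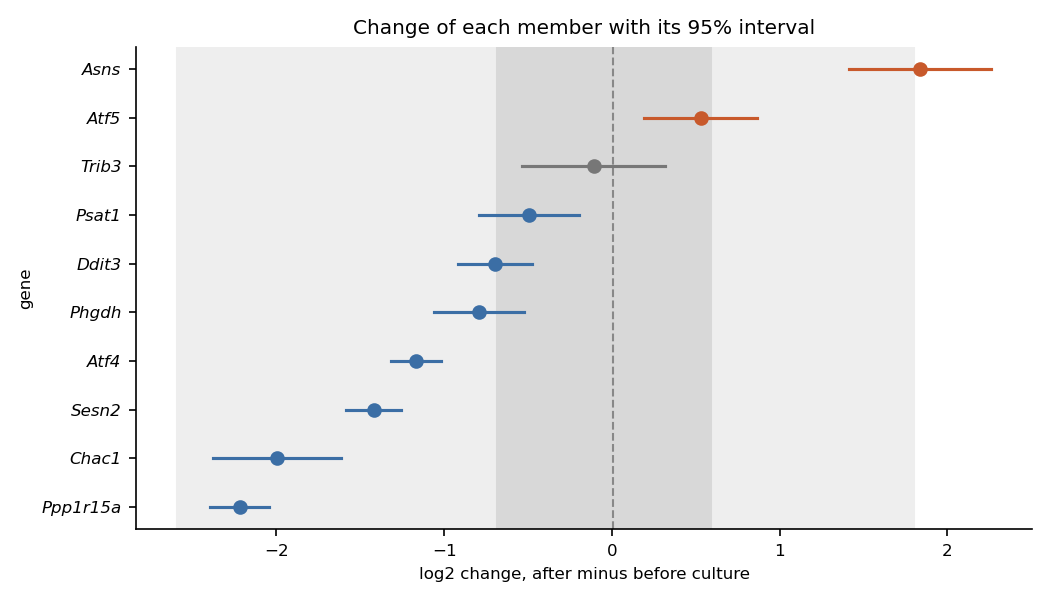
Log2 change after minus before culture for each of the 10 genes (points, with 95% intervals from limma as lines; orange higher, blue lower, grey not past an adjusted p of 0.05). The dark band spans the 25th to 75th percentile of all 18202 tested genes, the light band the 5th to 95th, and the dashed line is their median. Asns lies above the light band and Ppp1r15a, at the lower end, within it.

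Replicate 4 before culture had the lowest value of its group for Atf4, Atf5, Sesn2 and Ppp1r15a, and replicate 3 after culture had the lowest of its group for Atf4, Atf5 and Psat1 and the highest for 3 others. Replicate 4 after culture was the lowest of its group for 5 genes, Ddit3, Trib3, Chac1, Sesn2 and Phgdh, with macrophage and monocyte (33571) and lung epithelial (5397) sums inside the range of its group. Replicate 4 before and replicate 3 after culture had the lowest macrophage and monocyte sums of their groups (31994 and 20989.9) and the highest lung epithelial sums (45696 and 9354). The part of these cells in those low values was not tested. Replicate 4 before and replicate 3 after culture have library names B4 and A4, which share a number of unstated meaning. With these 2 libraries left out together, an alternative added after seeing the data, the same counts of 2 higher and 7 lower genes resulted. Under it Atf5 changed by 0.49, Atf4 by -1.19 and Psat1 by -0.33 (log2), each past the limma threshold.

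Levels can be compared between genes only per length. Per kilobase of the longest annotated transcript, Atf4 stood highest before culture at 3891 ± 236 normalized counts per kb (SD), followed by Ppp1r15a at 3339.6 ± 174, with no overlap between them. Sesn2 (721 ± 61.6) and Ddit3 (657 ± 91.1) came next and overlapped. Psat1, Phgdh and Atf5 lay between 227 and 249 per kb on average and overlapped from one to the next, Chac1 followed at 104 ± 7.16, and Asns (36.3 ± 10.4) and Trib3 (30.8 ± 5.61) overlapped at the bottom. After culture Atf4 (1727 ± 69.2) and Ppp1r15a (720.1 ± 79.0) were still the highest, and Ddit3 (402 ± 13.1) was the third. Atf5 (324 ± 45.0) had passed Sesn2 (269 ± 5.80) in the order, although their ranges overlapped. Asns (127 ± 10.8) now overlapped with Phgdh (134 ± 18.7), and Chac1 (26.2 ± 6.82) with Trib3 (28.6 ± 6.22).

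**Figure D3:**
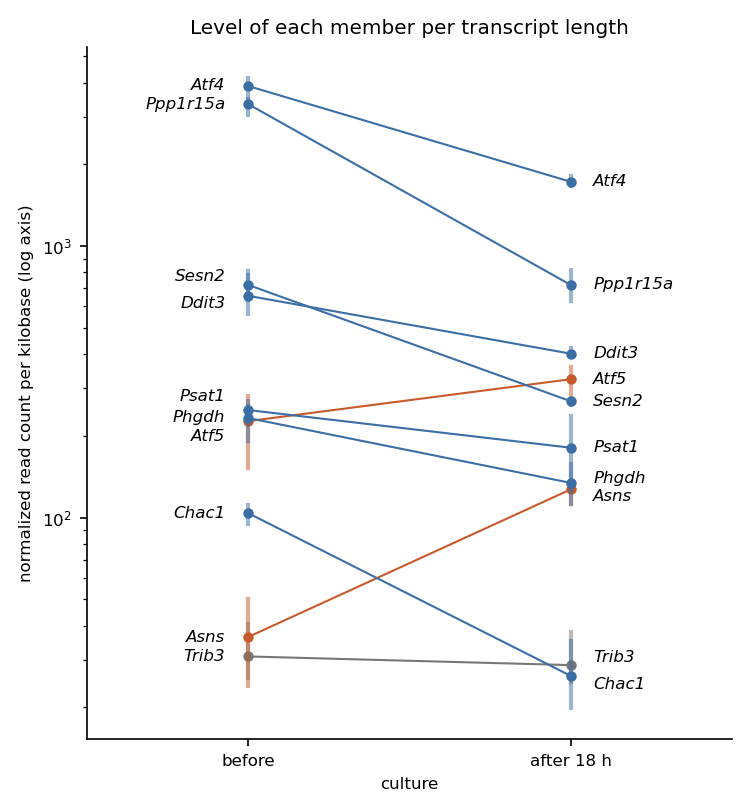
Mean normalized read count per kilobase of longest transcript (log axis) for each gene before and after 18 h of culture, with bars from the lowest to the highest sample. Blue lines fell, orange lines rose, and the grey line is Trib3. Among the lines that cross are those of Asns and Chac1 and those of Atf5 and Sesn2.

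Genes with the most similar profiles were taken as those with the smallest root mean square distance from a gene's own log2(count + 1) profile over the 9 samples, both centred on their means, among 11777 other genes with a mean count of at least 100. All profiles share the same libraries and the same group contrast. For Atf4 the nearest were Neurl3 (distance 0.05), Mef2d (0.05) and Shmt2 (0.06, log2 units), the last being a mitochondrial enzyme of serine use. For Sesn2 they were Itgb7 (0.05), Lpcat4 (0.06) and Slc16a13 (0.06), and for Ppp1r15a Tob1 (0.07), Plekhg5 (0.11) and Fgd2 (0.12). For Asns the distances were larger, at 0.15 for Zfp991, 0.18 for Tmod2 and 0.18 for Me1. For Psat1 they were Ctsc (0.09), Tcn2 (0.09) and Urod (0.09).

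Other genes of the integrated stress response were taken from 9 fixed lists with 104 genes, of which 101 were matched to a symbol and 99 were tested. The lists were chosen with earlier results of these data known. After culture 26 of the 99 (26.3%) had risen and 40 (40.4%) had fallen, beside 34.2% and 34.6% of all tested genes, with a median log2 change of -0.16. The lists with the highest share of lower genes were the bZIP partners and regulators of ATF4 (2 of 12 higher, 8 lower, median -0.80) and the amino acid transporters that ATF4 induces (1 of 10 higher, 6 lower, median -0.49).

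Of the 4 kinases that start the response, 1 rose, 1 fell and 2 did not pass the test. Of all tested genes, 34.2% were higher and 34.6% lower. Eif2ak2, which encodes PKR, a sensor of double-stranded RNA, rose from 1049 ± 89.7 to 1922 ± 426 (SD, log2 change 0.85, SE 0.13, limma adjusted p = 4.52e-05). Eif2ak4, the amino acid sensor GCN2, fell from 1572 ± 54.4 to 1296 ± 53.0 (log2 change -0.28, SE 0.07, limma adjusted p = 0.00191). Eif2ak1, the heme-regulated kinase, went from 2108 to 2145 (log2 change 0.02, SE 0.07, limma adjusted p = 0.821). For Eif2ak3, the endoplasmic reticulum kinase PERK, the change was 0.10 (SE 0.07, limma adjusted p = 0.185), and among the alternatives it passed only with the GC and length correction (0.22, limma adjusted p = 0.00961).

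Among subunits of eIF2 and of its exchange factor eIF2B, 2 of 8 genes (25%) were higher and 1 (12.5%) lower (median -0.11). The shares over all tested genes were 34.2% higher and 34.6% lower. Eif2s1, the subunit that the kinases phosphorylate, rose from 1525 ± 132 to 2075 ± 155 (log2 change 0.45), but with the GC and length correction its change was 0.0026 (limma adjusted p = 0.978). Eif2b3 rose 1.38-fold and Eif2b2 fell 2.14-fold. Of 7 phosphatase and relay genes, 2 were higher and 2 lower (28.6% each, median -0.05). Ppp1r15b, the constitutive partner of the eIF2 phosphatase, fell from 8450 ± 401 to 5346 ± 340 (log2 change -0.66, SE 0.07, limma adjusted p = 1.87e-06), beside -2.22 for its inducible relative Ppp1r15a. Oma1, a mitochondrial protease upstream of the heme-regulated kinase, rose 1.47-fold.

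Genes for bZIP proteins that pair with ATF4 or act beside it showed large changes. Atf3, a repressor that ATF4 induces, had counts between 11663 and 13551 before and between 2137 and 3117 after culture, with no overlap, and fell 4.59-fold (log2 change -2.21, SE 0.10, limma adjusted p = 5.84e-10). Jdp2 fell 6.89-fold and Cebpd 4.32-fold. Cebpb, named after its values were seen because it encodes a partner of ATF4 at CARE sites, had counts of 9973, 12899, 15104, 5543 and 13146 before and 2851, 2698, 1042 and 1492 after culture. Replicate 4 before and replicate 3 after culture were again the lowest of their groups, and the log2 change was -2.53 (limma adjusted p = 8.77e-06), or -1.60 once GC content and length were corrected for. The partner Cebpg rose from 1061 ± 114 to 2084 ± 150 (log2 change 0.98, SE 0.09, limma adjusted p = 4.62e-07), and Nfe2l1 rose 1.78-fold.

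Amino acid import genes mostly fell, with 1 large rise. Slc7a11, the cystine transporter, had counts between 2564 and 4189 before and between 18614 and 22229 after culture, a 6.04-fold rise (log2 change 2.62, SE 0.14, limma adjusted p = 1.84e-09). Slc7a11 is also a known target of the antioxidant factor NRF2. Slc7a5, which imports large neutral amino acids, fell 4.95-fold, and Slc1a5, a glutamine transporter, fell 2.59-fold. Of the cytosolic aminoacyl-tRNA synthetases, 6 of 17 tested (35.3%) were higher and 5 (29.4%) lower (median -0.0007). These shares are near the 34.2% and 34.6% of all tested genes. Eprs1 fell 1.83-fold and Qars1 1.57-fold, while Wars1 rose 1.45-fold and Farsb 1.55-fold.

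Of the serine, one-carbon and other biosynthesis enzymes, 3 of 16 (18.75%) were higher and 6 (37.5%) lower (median -0.09). Over all tested genes these shares were 34.2% and 34.6%. Shmt2, which splits serine in mitochondria, fell from 1249 ± 102 to 582 ± 35.6 (log2 change -1.10, SE 0.08, limma adjusted p = 7.10e-08), or -0.71 with the GC and length correction. Mthfd2, which acts next to it on the one-carbon unit, rose from 872 ± 20.5 to 1654 ± 107 (log2 change 0.92, SE 0.07, limma adjusted p = 7.06e-08). Aldh18a1, of proline synthesis, fell 2.23-fold. Of 13 other targets of ATF4 or CHOP, 3 were higher and 7 lower (median -0.42). The stress cytokine gene Gdf15 fell 3.76-fold and Vegfa 2.85-fold, while Xpot, a tRNA exporter, rose 1.49-fold.

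**Figure D4:**
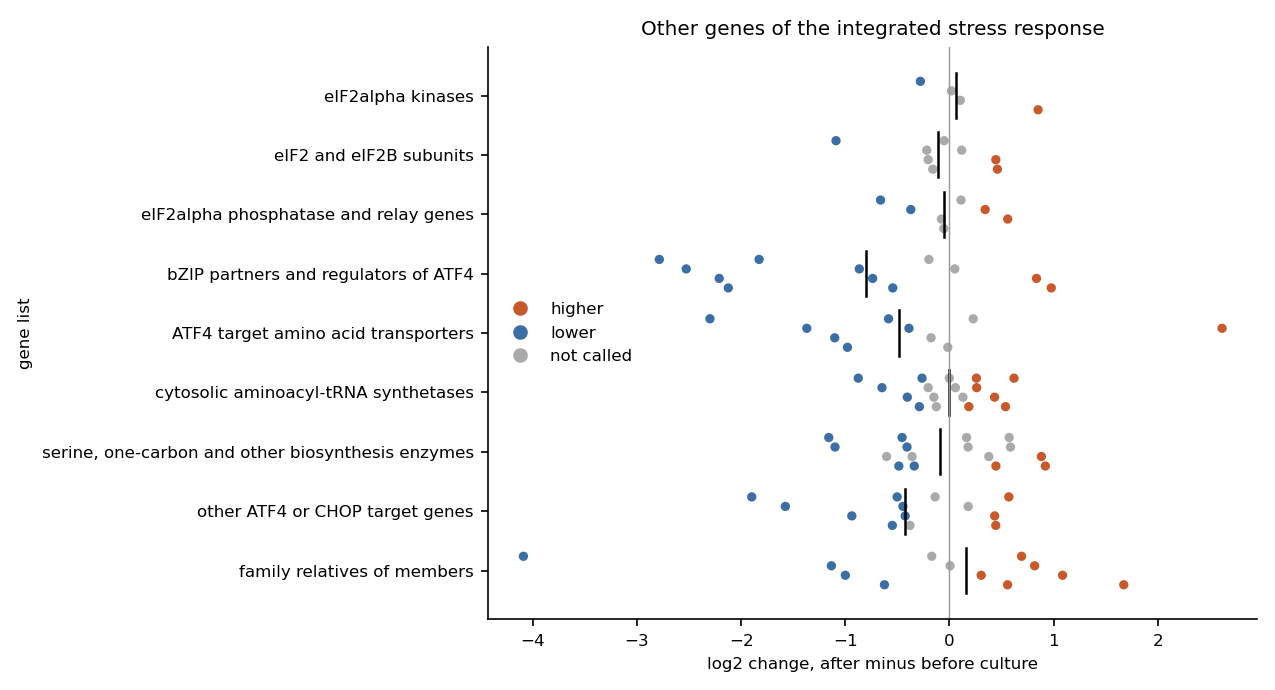
Log2 change after minus before culture (horizontal axis) of each tested gene in the 9 fixed lists (rows). Points are genes, orange for higher, blue for lower and grey for not past an adjusted p of 0.05, spread vertically only to separate them, and the black bar is the list median. The bZIP list has its median at -0.80, and Slc7a11 is the point at 2.62.

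Relatives of the 10 genes did not share their direction in several families. Of the Tribbles pseudokinases, Trib1 fell from counts between 17044 and 19796 to counts between 869 and 1242 (log2 change -4.09, SE 0.10, limma adjusted p = 1.83e-12). Trib2 changed by -0.62, and Trib3 by -0.11 without passing. Of the sestrins, Sesn1 rose from 457 ± 43.2 to 739 ± 68.0 (log2 change 0.69) and Sesn3 from 2148 ± 212 to 3800 ± 515 (0.82), beside the fall of Sesn2. Chac2, which encodes the constitutive glutathione-degrading relative of Chac1, rose from 22.7 ± 2.89 to 74.7 ± 10.3 (log2 change 1.67, SE 0.20, limma adjusted p = 5.75e-06), or 1.06 with the GC and length correction. Differences in change between relatives were not tested. In the wider ATF and CREB family, Creb1 rose 2.13-fold (log2 change 1.09, or 0.65 with that correction) and Atf7 1.47-fold, and Crem fell 2.20-fold and Atf6 1.99-fold.

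**Figure D5:**
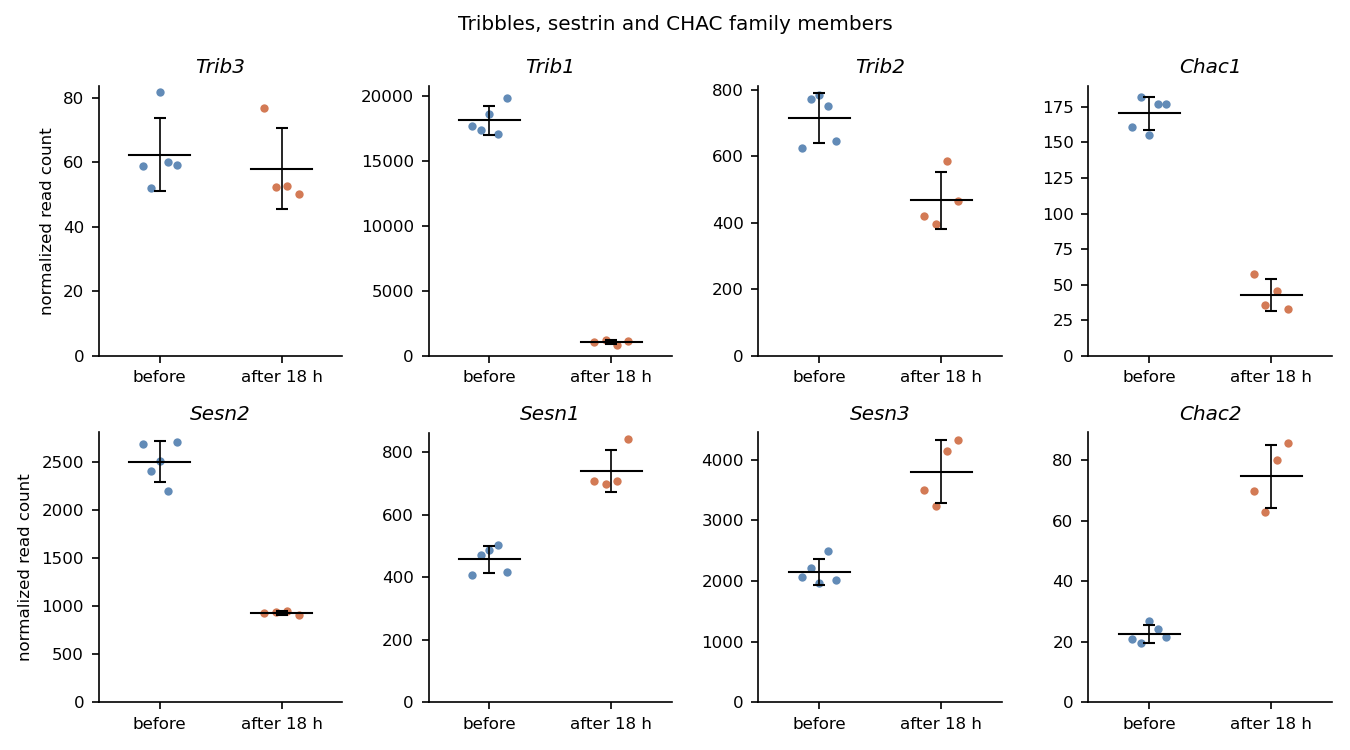
Normalized read counts (linear axes from 0) of Trib3, Trib1, Trib2, Chac1, Sesn2, Sesn1, Sesn3 and Chac2 in each sample before (blue, n = 5) and after culture (orange, n = 4), with mean and SD. Sesn1, Sesn3 and Chac2 lie higher after culture in every sample, and Sesn2, Chac1, Trib1 and Trib2 lower.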

How the data were processed

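The values used are read counts scaled between samples, kept as signal in 1 table that the authors deposited. DESeq2 and the build GRCm38 are named in the submitters' processing notes, and aligner, counter, annotation and strand are not given in the sources used here. All values (100%, tolerance 1e-06) were whole multiples of 1 step per sample, so whole reads were recovered. The 3782 rows without a symbol held 6.43 to 10.9% of reads before and 3.87 to 5.46% after culture, and they were left out. Genes were fitted with limma 3.58.1 under R 4.3.3 with group as the only term and a mean-variance trend, on log2(value + 1) of genes with a mean of at least 10. Tests were two-sided, with Benjamini-Hochberg adjustment across the 18202 genes. On the recovered reads edgeR 4.0.16 (quasi-likelihood) called 6184 genes higher and 6378 lower, beside 6225 and 6299 by limma. Samples were grouped by title. The labels list separate samples but name no separate mice. The p-values therefore set the group difference against the spread between these samples, which may not be a spread between mice.

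All 10 genes were named with every value. From each list up to 3 genes with the smallest adjusted p, genes called against the list's median, kinases and family relatives could be named. Genes and lists were chosen with earlier results of these data known. Alternatives included other pseudocounts, filters and scalings, edgeR and DESeq2 1.42.0 on recovered reads, a replicate block and leaving out each sample. Positions, lengths and shared 50-base windows came from GENCODE M21 (GRCm38), and promoters from RefSeq (GRCm38.p6), in which all 10 symbols were matched. Scripts were tested on simulated counts. Other tools were Python 3.11.15, pandas 2.3.3 and matplotlib 3.10.9.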

Additional observations from a re-analysis of the deposited data

Results flagged for a closer look

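In 10 of 112 sets of values checked, 1 sample stood apart from the rest of its group by Dixon's 95% criterion, which chance meets in about 1 in 20 sets. For Trib3 this was replicate 3 before culture (normalized count 81.9) and replicate 1 after culture (76.8). Cebpd was highest in replicate 2 after culture (517), Crem in replicate 3 after culture (1889.8) and Sesn1 in replicate 4 after culture (841). Aldh18a1 was lowest in replicate 3 after culture (487), and Creb1 highest in replicate 4 before culture (2478). Replicate 4 before culture also had the highest summed counts of lung epithelial markers (45696) and of T and NK cell markers (7463), and replicate 3 after culture the highest lung epithelial sum (9354).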

How the results depend on the processing

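Under 14 alternatives with other settings and 9 that left out 1 sample, 2 of the 10 genes were higher and 7 lower in every case. Of the list genes, 25 to 28 were higher and 36 to 47 lower when a sample was left out, and 23 to 31 and 37 to 47 under the other alternatives. Of 1077 values for single genes, 1071 kept their direction and their side of the threshold. Under quantile normalization Trib3 changed by 0.070 (log2), and with GC content and length corrected for by 0.31. That correction, added after seeing the data, also gave Eif2ak3 0.22, now past the threshold, and Eif2s1 0.0026, no longer past it. The cause was not tested. Eif2ak1 ran from -0.027 to 0.070 when a sample was left out, turning negative without replicate 2 (-0.027) or replicate 4 after culture. With a replicate block by the number in the sample title, 2 of the 10 genes were higher and 7 lower, and 25 and 38 list genes. With the number in the library name these were 2 and 7, and 27 and 44. Deviations from the group means of same-numbered samples correlated at -0.21 to 0.08 by title and at 0.04 to 0.35 by library name, where every cultured sample correlated best with its own number. The pairs numbered 3 and 4 by library name correlated at 0.25 and 0.35, and those numbered 1 and 5 at 0.08 and 0.04. Replicate 4 before and replicate 3 after culture are the pair numbered 4. Since the labels do not say what a number marks, the samples were not treated as paired in the main fit.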
